A study of Mus musculus with 10 samples.

Results

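The genes described here build and serve the primary cilium. They are 41 genes of intraflagellar transport, the BBSome, the transition zone, the basal body and the ciliary control of hedgehog signalling, taken by gene symbol from a list drawn up with earlier results of these data known. Of the 41, 40 were measured, each by 1 probe set, among 19505 named genes and 22206 probe sets in all. Arl13b, a GTPase of the ciliary membrane, had no probe set under its symbol in the annotation used here, so its expression was not analysed. The samples were Wolffian ducts, the embryonic tubes that become the epididymis and vas deferens, dissected at 16.5 days post-coitum from mice and kept in culture for 72 h. Of the 10 arrays, 4 were from ducts cultured with 0.5 µM SAG, an agonist of Smoothened that switches hedgehog signalling on. Another 3 were from ducts with 25 µM cyclopamine, a Smoothened inhibitor, and 3 from vehicle ducts, which received culture medium. The labels give neither mouse strain nor embryo sex, do not say whether the medium of the vehicle ducts held the solvent of the compounds, and title the samples pronephros while their protocols describe Wolffian ducts. The series calls the arrays of a group biological replicates.

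A primary cilium is a single, non-motile antenna of the cell surface, built on a centriole that serves as the basal body. Trains of IFT-B and IFT-A proteins carry cargo along its axoneme, outward with kinesin-2 and back with cytoplasmic dynein 2, and the BBSome moves membrane proteins in and out. The transition zone at its base acts as a gate. In vertebrates, hedgehog signalling runs through this organelle: Patched leaves the cilium when ligand binds, Smoothened enters, and the balance between activator and repressor forms of the GLI factors is set there. Mutations of many of these genes cause ciliopathies such as Bardet-Biedl, Joubert and Meckel syndromes.

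The arrays carried log2 signals, on which 1 unit is a doubling. The signal of a probe set depends on its own probes as well as on RNA, so levels are compared between arrays and never between genes. Array medians lay between 7.55 and 7.70. A hedgehog target was read first as a check of the labels. Ptch1, the hedgehog receptor and a target of the pathway, was 15.40, 16.28, 16.15 and 15.74 with SAG, 10.25, 10.16 and 10.23 with cyclopamine, and 14.49, 14.58 and 13.95 with vehicle. Cyclopamine replicate 2 stood apart from the other cyclopamine arrays on the second principal component of all probe sets (51.7, against -13.6 and -13.0), and differences of the cilium genes printed below that it moves by over 0.15 are given with and without it. All ducts were measured whole, so fewer cells of a type and less RNA per cell cannot be told apart. Of 14 measured duct epithelium markers, all had mean signals above the lower quartile of probe set means (5.19).

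The cilium genes had a wide range of signals, and no test of detection was made. Mean signal over the 10 arrays ran from 5.32 to 13.1, 34 of the 40 genes lay above the median probe set (7.62), and 0 lay below the lower quartile. Probe set signals were near the low end of this range for Kif7 (5.32), Bbs5 (6.42) and Bbs7 (6.53) and near the high end for Kif3a (12.4), Bbs9 (12.7) and Ift20 (13.1), which gives no order of their RNA. Arrays of the same group differed by a median SD of 0.24 over the cilium genes, as over all probe sets (0.24). The spread was smallest for Kif3a (SD 0.10) and Evc2 (0.12) and largest for Tulp3 (0.52), Tctn1 (0.48) and Bbs2 (0.45).

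**Figure D1:**
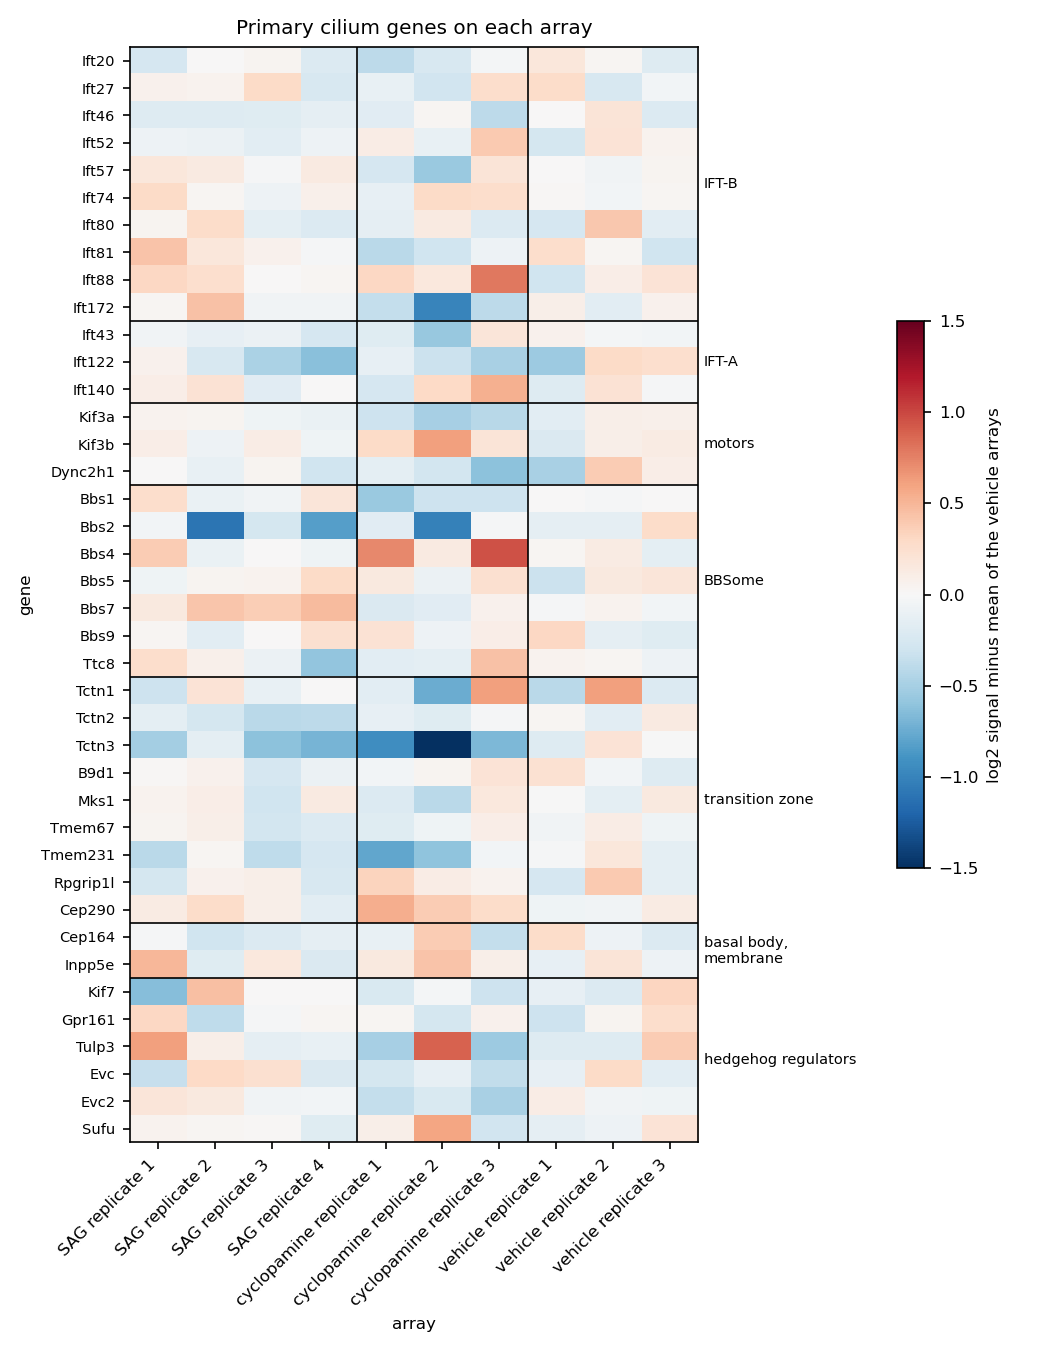
Log2 signal of each of the 40 measured cilium genes (rows, grouped by role) on each of the 10 arrays (columns), minus the mean of the 3 vehicle arrays. Most cells are pale, and the colours saturate at 1.5 log2 units either way. Tctn3 is lower on the cyclopamine arrays than on the vehicle arrays, and Bbs4 is highest on cyclopamine replicates 1 and 3.

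Activation of hedgehog signalling left no cilium gene past the test. With SAG against vehicle, 0 of 40 cilium genes passed (limma, Benjamini-Hochberg adjusted p under 0.05 over all probe sets), against 0.73% of all probe sets (0.45% called higher and 0.279% lower), and 2 had an unadjusted p under 0.05, against 10.8% of all probe sets. Arrays of both groups did not overlap for 2 of the 40 (5%), against 12.9% of all probe sets. The median log2 difference of the 40 was -0.01, beside 0.01 over all probe sets, and the median size without sign was 0.08, beside 0.16. The differences ran from -0.56 for Bbs2 to 0.35 for Bbs7. Because a missed threshold does not show equality, the 95% intervals of the differences were examined. For 38 of the 40 genes (95%) the interval lay within 1 log2 unit of 0, that is within 2-fold either way, against 87.3% of all probe sets. Such an interval bounds the size of a difference and does not show equality. The count of 0 was also found under each of the 19 alternative settings.

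Inhibition with cyclopamine gave a single call. Against vehicle, 1 of 40 cilium genes passed and fell, 0 rose and 39 did not pass, against 5.12% of all probe sets called (2.95% lower and 2.17% higher). Groups did not overlap for 8 of the 40 (20%), against 23.1% of all probe sets. At an unadjusted p under 0.05 there were 9, or 22.5% of the 40, against 18.9% of all probe sets. The median log2 difference was -0.08, beside 0.02 over all probe sets, and the median size without sign was 0.19, beside 0.20. Intervals lay within 1 log2 unit of 0 for 36 of 40 genes, against 81.1% of all probe sets. The count of calls was 2 without cyclopamine replicate 2, Tctn3 and Bbs4.

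The arrays with the pathway on and off were also set against each other directly. In SAG against cyclopamine, 3 of 40 cilium genes passed, all higher with SAG, 0 were lower and 37 did not pass, against 11.3% of all probe sets called (5.42% higher and 5.92% lower). Groups did not overlap for 7 of the 40 (17.5%), against 21.2% of all probe sets. At an unadjusted p under 0.05 there were 10, or 25% of the 40, against 23.4% of all probe sets. The median log2 difference was 0.02, beside 0.01 over all probe sets, and intervals lay within 1 log2 unit of 0 for 38 of 40 genes, against 80.6%. These include Bbs1 (0.18 to 0.76) and Bbs7 (0.18 to 0.75), which passed, so genes called as changed can meet this bound. In each of the 3 comparisons the share of cilium genes called lay below that of all probe sets, and the difference between these shares was not tested. At an unadjusted p under 0.05 the share of cilium genes lay above that of all probe sets in both comparisons with cyclopamine. The comparisons share arrays: both compounds are set against the same vehicle arrays. With any 1 array left out, 0 to 2 cilium genes passed between SAG and cyclopamine. The 2 without cyclopamine replicate 2 were none of the 3 above. They were Evc2, higher with SAG, and Bbs4, lower with SAG (-0.78, limma adjusted p = 0.0136).

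**Figure D2:**
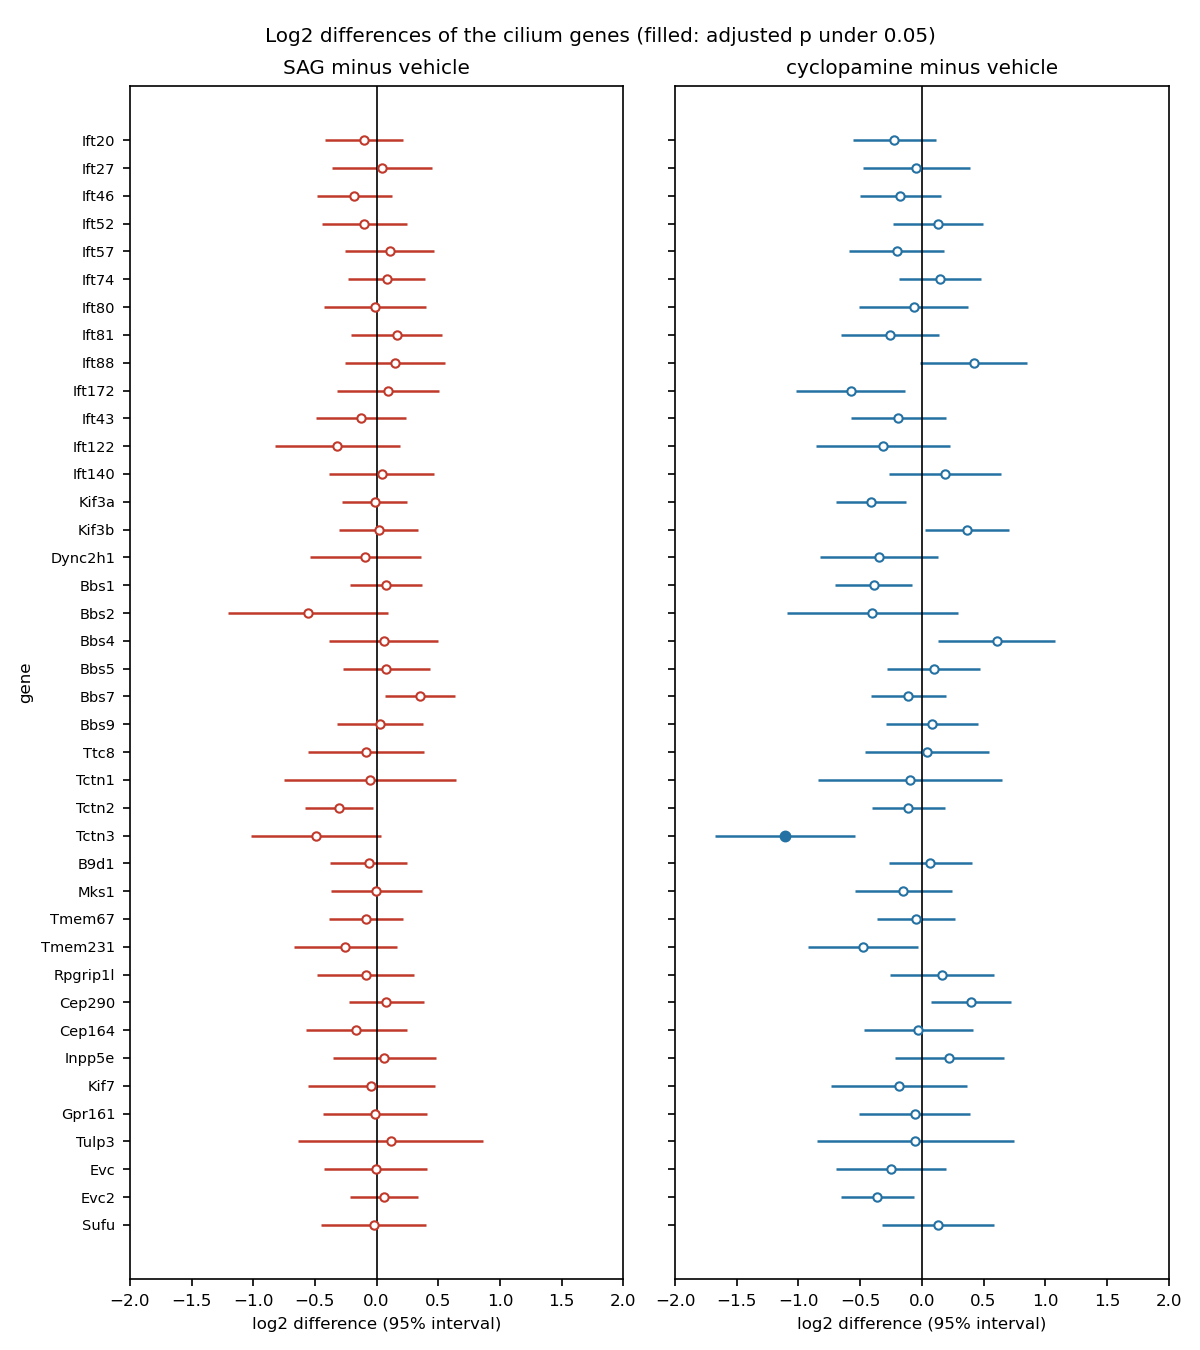
Log2 difference of each cilium gene (rows) with its 95% interval, for SAG minus vehicle (left) and cyclopamine minus vehicle (right). Filled points passed at an adjusted p under 0.05. The 1 filled point is Tctn3 with cyclopamine, at -1.11.

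The call with cyclopamine against vehicle was Tctn3. It encodes tectonic-3, a membrane protein of the transition zone complex, whose mutation causes ciliopathy in humans. Its signal was 9.18, 8.39 and 9.44 with cyclopamine and 9.92, 10.32 and 10.10 with vehicle, and the 2 groups did not overlap. It fell by 1.11 on the log2 scale (SE 0.26, 95% interval -1.67 to -0.54), 2.16-fold, with a limma adjusted p of 0.0342. Cyclopamine replicate 2 was the lowest array, and without it the difference was -0.80 (adjusted p = 0.0415). The call ended without SAG replicate 3 (adjusted p = 0.0529), cyclopamine replicate 1 (0.0589) or vehicle replicate 1, 2 or 3 (0.0735, 0.118 and 0.0869). SAG arrays bear on this difference by way of the spread that all groups share. With SAG the signal was 9.60, 9.97, 9.50 and 9.41, overlapping both other groups (-0.49 ± 0.24 (SE) against vehicle, limma adjusted p = 0.501).

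The 3 genes called between SAG and cyclopamine were Ift172, Bbs1 and Bbs7, none of which passed against vehicle. Ift172, a large IFT-B subunit, was 10.05, 10.46, 9.97 and 9.96 with SAG and 9.66, 9.03 and 9.63 with cyclopamine. Vehicle arrays (10.10, 9.87 and 10.08) lay within the range of the SAG arrays except for replicate 2 just below it, and cyclopamine arrays lay below all others. It was higher with SAG by 0.67 ± 0.19 (SE), 1.59-fold (limma adjusted p = 0.0429), and its difference between cyclopamine and vehicle, -0.58 ± 0.20, did not pass (limma adjusted p = 0.140). Without cyclopamine replicate 2 these differences were 0.46 (adjusted p = 0.117) and -0.37 (adjusted p = 0.298). It also missed the threshold without any 1 of the other arrays save cyclopamine replicate 1 (adjusted p 0.0562 to 0.107).

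Bbs1, a BBSome subunit whose gene is mutated in Bardet-Biedl syndrome, was 9.45, 9.08, 9.13 and 9.36 with SAG and 8.63, 8.86 and 8.87 with cyclopamine. The vehicle arrays stood close together at 9.18, 9.16 and 9.19, inside the SAG range and above every cyclopamine array. It was higher with SAG than with cyclopamine by 0.47 ± 0.13 (SE), 1.38-fold (limma adjusted p = 0.0438). The call ended with any 1 array left out other than SAG replicate 2 (adjusted p 0.0556 to 0.159). Bbs7, another BBSome subunit, was 6.57, 6.84, 6.79 and 6.90 with SAG, 6.20, 6.25 and 6.49 with cyclopamine, and 6.40, 6.48 and 6.39 with vehicle. Here the SAG arrays lay above both other groups, which overlapped each other. The difference between SAG and cyclopamine was 0.46 ± 0.13 (SE), 1.38-fold (limma adjusted p = 0.0403), and that between SAG and vehicle was 0.35 ± 0.13 (limma adjusted p = 0.322). The Bbs7 call ended with any 1 array left out other than SAG replicate 1 or cyclopamine replicate 3 (adjusted p 0.0582 to 0.140).

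**Figure D3:**
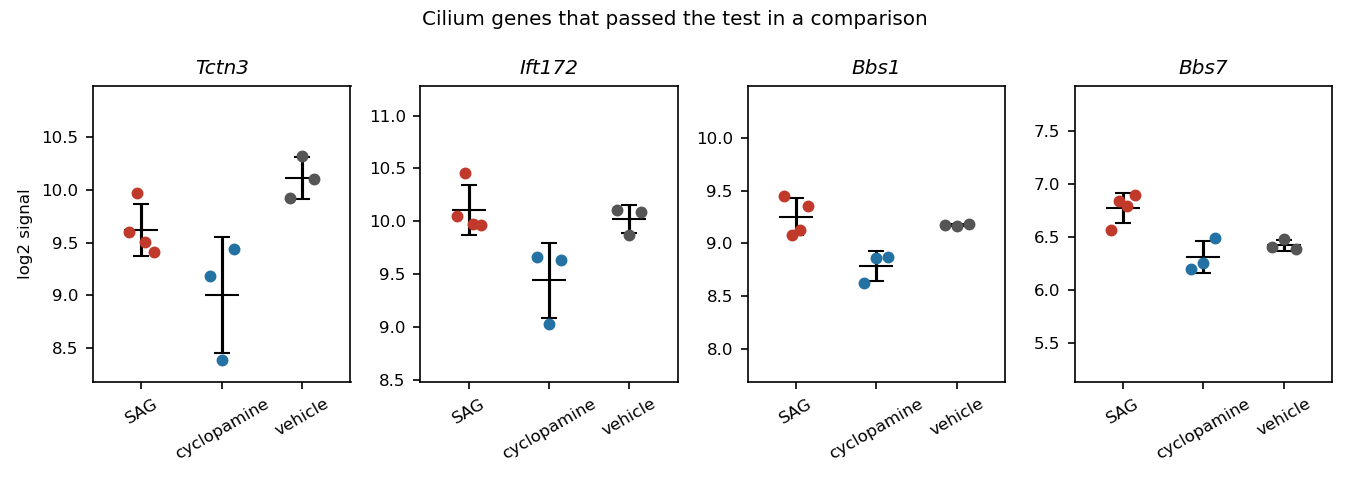
Log2 signal of the 4 cilium genes that passed in any comparison, 1 point per array, with the mean and SD of each group as a bar; every panel spans the same range of log2 units. Cyclopamine arrays lie below vehicle arrays for Tctn3, Ift172 and Bbs1, and SAG arrays lie above the others for Bbs7.

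Many ciliary genes of animals are regulated by RFX transcription factors, which bind a pair of inverted half-sites called the X-box. The promoters of the cilium genes were therefore searched for the half-site GTTGCC and for a looser X-box palindrome of 14 letters. In this palindrome the half-site faces its inverse across a fixed gap. Any base was allowed in place of the inner G of the half-site and of its partner C in the inverse. GACCACCCA, a site bound by GLI factors, was searched as well, all on both strands in windows from 250 bases before to 50 bases after each RefSeq gene start (GRCm38.p6). A window was given for 37 of the 41 genes. The half-site was found in 19 of 37 (51.4%), against 14.1% of 27025 genes with a window. In the lists of further cilium genes and motile cilium genes read below, it was found in 30.2% of 53 and 40% of 10 genes. The palindrome, which may contain the half-site, was found in 3 of 37 (Bbs7, Mks1 and Tctn1), against 0.529% of all genes. Pairs with another gap were not counted. Among them is that of Tctn3, where ggtaac follows the half-site after a shorter gap. The GLI site was found in 0 of 37, against 0.289% of all genes. Of 22 half-site matches in cilium promoters, 13 began within 50 bases of the gene start. The windows of the cilium genes had a median GC content of 58.3%, against 52.7% for all windows. They held a median of 19 CpG pairs (a C followed by a G), against 7 for all windows. The sets compared therefore differ in base composition as well. The spellings were settled after several had been counted, and the shares are a description with no test.

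**Figure D4:**
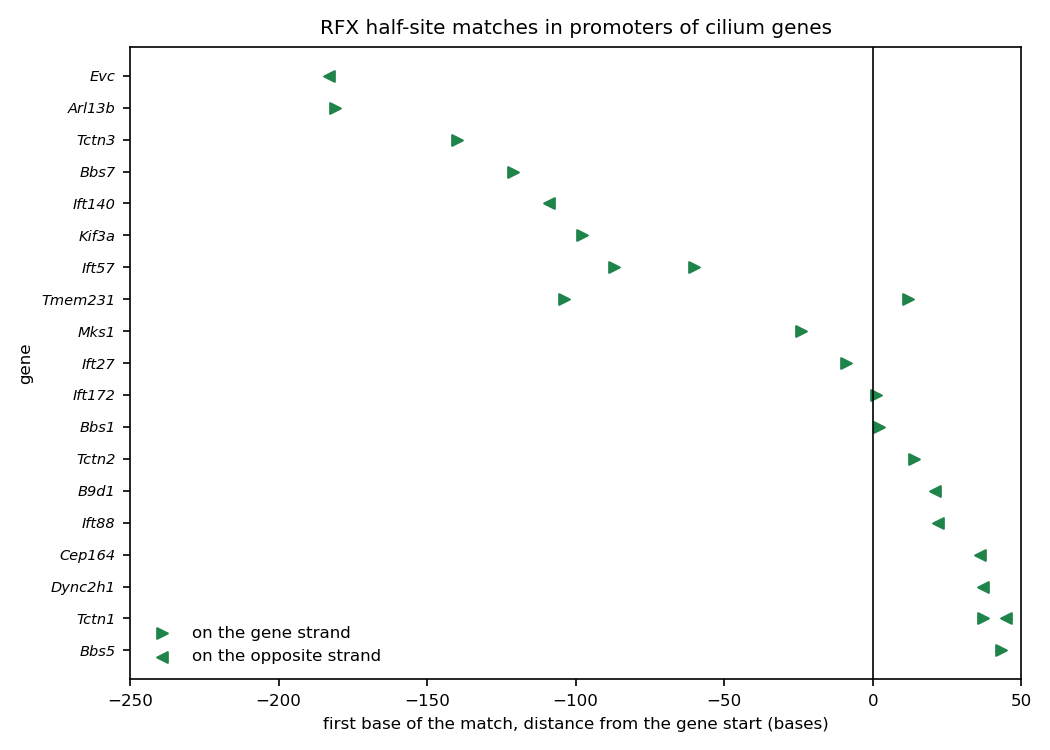
Position of each of the 22 matches to the half-site GTTGCC in the promoters of 19 cilium genes (rows), as the distance of the first base from the gene start; right-pointing triangles are matches on the gene's strand. Positions run from -183 in Evc to 45 in Tctn1, and 13 of 22 lie within 50 bases of the start.

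All 4 genes that passed in a comparison carry the half-site, which was found in 19 of the 37 cilium genes with a window (51.4%). A link between the half-site and the calls was not tested. The promoters of these 4 are shown because they carry it, with 200 bases each from position -170 to 30 around the gene start. Sequences are from RefSeq, build GRCm38.p6, 5′ to 3′ on the gene's strand, with half-site and palindrome letters in capitals.
Tctn3 (chr19:40612202-40612401, minus strand): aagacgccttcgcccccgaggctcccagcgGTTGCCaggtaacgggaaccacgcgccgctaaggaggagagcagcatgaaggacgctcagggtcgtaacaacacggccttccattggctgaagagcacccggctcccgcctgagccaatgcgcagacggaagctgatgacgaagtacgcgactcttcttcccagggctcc
Ift172 (chr5:31291085-31291284, minus strand): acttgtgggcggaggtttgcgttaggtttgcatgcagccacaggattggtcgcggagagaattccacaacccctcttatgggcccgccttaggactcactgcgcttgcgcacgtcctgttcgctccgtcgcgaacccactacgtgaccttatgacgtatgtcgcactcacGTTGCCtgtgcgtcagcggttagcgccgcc
Bbs1 (chr19:4906598-4906797, minus strand): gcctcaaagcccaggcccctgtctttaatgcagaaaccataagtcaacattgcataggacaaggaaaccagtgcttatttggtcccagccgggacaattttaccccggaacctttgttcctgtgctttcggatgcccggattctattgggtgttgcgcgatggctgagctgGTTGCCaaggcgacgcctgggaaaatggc
Bbs7 (chr3:36613360-36613559, minus strand): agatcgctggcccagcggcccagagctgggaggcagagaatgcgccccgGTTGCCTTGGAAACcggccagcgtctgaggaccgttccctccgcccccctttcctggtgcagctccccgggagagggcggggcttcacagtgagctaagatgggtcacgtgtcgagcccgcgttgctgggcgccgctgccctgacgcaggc
In Ift172 and Bbs1 the match begins at positions 1 and 2, on the transcribed side of the start, and in Tctn3 and Bbs7 at -140 and -121. The other palindromes, with capitals marking the 14 letters, are in promoters of genes that passed in no comparison, and lie at position -24 of Mks1 and position 37 of Tctn1.
Mks1 (chr11:87853183-87853212, plus strand): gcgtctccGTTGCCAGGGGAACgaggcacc
Tctn1 (chr5:122264411-122264440, minus strand): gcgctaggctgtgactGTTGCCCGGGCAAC

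Among the 10 measured IFT-B genes, which form the outward-moving train, 0 passed against vehicle with SAG or with cyclopamine, and Ift172 alone passed between SAG and cyclopamine. Counts in this and the following role groups stand beside the shares of all probe sets called. These were 0.73% with SAG and 5.12% with cyclopamine, each against vehicle, and 11.3% between SAG and cyclopamine. Median log2 differences were 0.06 with SAG and -0.12 with cyclopamine, both against vehicle. Ift81, which binds tubulin cargo together with IFT74, was 11.71, 11.45, 11.34 and 11.26 with SAG, 10.87, 10.98 and 11.20 with cyclopamine, and 11.54, 11.31 and 10.98 with vehicle. Its SAG arrays lay above its cyclopamine arrays (0.42 ± 0.17 (SE), limma adjusted p = 0.154), while vehicle overlapped both. Ift20, which also works at the Golgi, differed by -0.10 ± 0.14 with SAG and -0.22 ± 0.15 with cyclopamine, both against vehicle. Ift88, the gene of the classical Oak Ridge polycystic kidney mouse, was at 0.42 ± 0.20 with cyclopamine, its highest array being cyclopamine replicate 3 (9.74). The remaining 6 IFT-B genes, Ift27, Ift46, Ift52, Ift57, Ift74 and Ift80, stayed between -0.20 and 0.15 in both comparisons with vehicle. The lower end is Ift57 with cyclopamine, which was at -0.03 without cyclopamine replicate 2.

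None of the 3 IFT-A genes, which serve return transport and the entry of membrane proteins, passed in any comparison. Ift122 was 8.78, 8.48, 8.25 and 8.10 with SAG, 8.60, 8.39 and 8.24 with cyclopamine, and 8.18, 9.01 and 8.98 with vehicle. All 3 groups overlapped, and the differences from vehicle were -0.32 ± 0.23 (SE) with SAG and -0.31 ± 0.25 with cyclopamine. Ift43 was at -0.13 ± 0.16 with SAG and -0.19 ± 0.18 with cyclopamine (0.00 without cyclopamine replicate 2), and Ift140 at 0.04 and 0.19.

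The kinesin-2 motor genes had values of opposite sign with cyclopamine, and 0 of 3 motor genes passed in any comparison. Kif3a and Kif3b encode the partner motor subunits of heterotrimeric kinesin-2, which drives trains outward. Kif3a was 12.56, 12.55, 12.44 and 12.41 with SAG, 12.19, 12.01 and 12.09 with cyclopamine, and 12.34, 12.60 and 12.58 with vehicle, so that its cyclopamine arrays lay below every other array. Kif3b was 9.55, 9.37, 9.56 and 9.38 with SAG, 9.74, 10.06 and 9.65 with cyclopamine, and 9.23, 9.54 and 9.57 with vehicle, so that its cyclopamine arrays lay above every other array. Against vehicle, cyclopamine gave -0.41 ± 0.13 (SE) for Kif3a (limma adjusted p = 0.0999) and 0.37 ± 0.15 for Kif3b (limma adjusted p = 0.232), and neither passed. With SAG both were near 0 (-0.02 ± 0.12 and 0.02 ± 0.14). Between SAG and cyclopamine Kif3a missed the threshold at an adjusted p of 0.0592, and passed with each array centred on its median (0.0318), with an intensity-dependent prior (0.0365) and without the dimmest probe sets (0.0434). Dync2h1, the heavy chain of the return motor dynein 2, was at -0.09 with SAG and -0.35 with cyclopamine.

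Of the 7 BBSome genes, none passed against vehicle, and Bbs1 and Bbs7 passed between SAG and cyclopamine, where 11.3% of all probe sets were called. Bbs4, also a subunit, was 10.20, 9.72, 9.83 and 9.75 with SAG, 10.54, 9.95 and 10.78 with cyclopamine, and 9.84, 9.94 and 9.68 with vehicle. Cyclopamine replicates 1 and 3 lay above every other array, and replicate 2 lay close to the vehicle arrays. Against vehicle it was at 0.61 ± 0.21 (SE) with cyclopamine (limma adjusted p = 0.147), and without cyclopamine replicate 2 at 0.84 (adjusted p = 0.0229). Between SAG and cyclopamine Bbs4 was at -0.55 ± 0.20 (limma adjusted p = 0.115), and without that array at -0.78 (adjusted p = 0.0136). It also passed there with array weights (-0.67, adjusted p = 0.0336). Bbs2 had the lowest difference with SAG (-0.56 ± 0.29, limma adjusted p = 0.542), and its SAG arrays ran from 8.50 to 9.56 and overlapped its vehicle arrays of 9.46 to 9.87. Bbs5, Bbs9 and Ttc8 lay between -0.08 and 0.10 in both comparisons with vehicle.

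In the transition zone, Tctn3 fell with cyclopamine and the other 8 of 9 genes did not pass in any comparison. Of all probe sets, 2.95% were called lower with cyclopamine against vehicle. Cep290, which links membrane and axoneme at the gate, was 9.51, 9.67, 9.48 and 9.23 with SAG, 9.94, 9.77 and 9.66 with cyclopamine, and 9.33, 9.33 and 9.51 with vehicle. Its cyclopamine arrays lay above its vehicle arrays (0.40 ± 0.15 (SE), limma adjusted p = 0.163) and overlapped its SAG arrays. Tmem231, of the same membrane complex as the tectonics, was at -0.48 ± 0.20 with cyclopamine (limma adjusted p = 0.232). Tctn2 was at -0.30 ± 0.13 with SAG (limma adjusted p = 0.405). Tctn1, the third tectonic, varied within groups, with 11.62, 11.04 and 12.39 on the cyclopamine arrays and 11.37, 12.39 and 11.57 on the vehicle arrays. Its difference between them was -0.10 ± 0.34, and 0.23 without cyclopamine replicate 2. With SAG 8 of the 9 genes had a negative difference, the exception being Cep290 (0.08), and the median was -0.09, beside 0.01 over all probe sets. Array medians were also lower with SAG (7.55 to 7.59) than with vehicle (7.63 to 7.70). With each array centred on its median, the median difference of all 40 cilium genes turned from -0.01 to 0.0762. Signs this close to 0 therefore depend on the scaling of the arrays.

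The basal body and membrane genes gave 0 calls. Cep164, a distal appendage protein needed to dock the mother centriole, was at -0.17 ± 0.19 (SE) with SAG and -0.03 ± 0.20 with cyclopamine, or -0.24 without cyclopamine replicate 2. Inpp5e, the phosphatase that keeps ciliary membrane poor in certain phosphoinositides, was at 0.06 ± 0.19 and 0.22 ± 0.20. For both genes the arrays of all 3 groups overlapped.

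The hedgehog regulators of the cilium were the genes nearest to the drugs' own pathway, and 0 of 6 passed in any comparison. With SAG their differences from vehicle ran from -0.04 for Kif7 to 0.11 for Tulp3, with a median of -0.01. Sufu, which restrains GLI factors, was at -0.02 ± 0.19 (SE) with SAG and 0.13 ± 0.21 with cyclopamine, which turned to -0.10 without cyclopamine replicate 2. Gpr161, a ciliary receptor that keeps the pathway off, was at -0.02 and -0.06, and Tulp3, which brings it into the cilium, at 0.11 and -0.05. Tulp3 was 7.05, 8.44 and 7.00 on the cyclopamine arrays, and without replicate 2 its difference from vehicle was -0.52 (limma adjusted p = 0.299). Kif7, the kinesin that organises the ciliary tip, had signals of 4.76, 5.85, 5.40 and 5.40 with SAG, 5.17, 5.37 and 5.09 with cyclopamine, and 5.28, 5.19 and 5.72 with vehicle, near the lower quartile of probe set means.

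Evc and Evc2 encode the partner proteins of the Ellis-van Creveld complex, which passes the signal on from Smoothened inside the cilium. Evc2 was 10.35, 10.32, 10.11 and 10.13 with SAG, 9.81, 9.94 and 9.68 with cyclopamine, and 10.28, 10.12 and 10.10 with vehicle. Its cyclopamine arrays lay below every other array, at -0.36 ± 0.13 (SE) against vehicle (limma adjusted p = 0.168) and with SAG higher than cyclopamine by 0.42 ± 0.12 (limma adjusted p = 0.0555). That comparison passed without cyclopamine replicate 2 (adjusted p = 0.0477), but not with any other 1 array left out (up to 0.176). It also passed after median centring (0.0380), after quantile normalization again (0.0377) and without the dimmest 25% of probe sets (0.0416). Under the other alternatives it did not pass. Evc was at -0.01 ± 0.19 with SAG and -0.25 ± 0.20 with cyclopamine, both against vehicle, and its groups overlapped.

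Further genes of the primary cilium were read from a list of 62, of which 56 were measured. With SAG against vehicle 0 of 56 passed, and 2 (3.57%) had an unadjusted p under 0.05, against 10.8% of all probe sets. With cyclopamine 1 rose and 3 fell, and between SAG and cyclopamine 4 were higher with SAG and 0 lower. The calls are 0%, 7.14% and 7.14% of the list, against 0.73%, 5.12% and 11.3% of all probe sets. Groups did not overlap for 7.14%, 32.1% and 26.8% of the list, against 12.9%, 23.1% and 21.2% of all probe sets. The median log2 differences were -0.02, -0.16 and 0.13. Tmem107, a membrane protein of the transition zone complex that also holds Tctn3, was 9.08, 9.29, 9.23 and 9.20 with SAG, 8.63, 8.43 and 8.39 with cyclopamine, and 9.49, 9.75 and 9.17 with vehicle. Its cyclopamine arrays lay below every other array, and it fell by 0.99 on the log2 scale against vehicle (SE 0.16, 1.98-fold, limma adjusted p = 0.00676). Pkd1, which encodes polycystin-1, was 8.97, 8.86, 9.42 and 9.06 with SAG, 8.0, 7.95 and 7.36 with cyclopamine, and 8.80, 8.61 and 8.86 with vehicle. SAG arrays lay above vehicle arrays and cyclopamine arrays below them. Its fall with cyclopamine was -0.99 ± 0.20 (limma adjusted p = 0.0200), and SAG was 2.48-fold above cyclopamine (limma adjusted p = 0.00116).

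Ofd1, a centriolar satellite and distal centriole protein, was the 1 gene of that list that rose with cyclopamine. It was 9.84, 9.61, 9.69 and 9.67 with SAG, 10.20, 10.22 and 9.92 with cyclopamine, and 9.27, 9.43 and 9.52 with vehicle, and no groups overlapped (0.70 ± 0.14 (SE), limma adjusted p = 0.0167). Lztfl1, which restrains BBSome entry into the cilium, was 12.40, 12.34, 12.32 and 12.36 with SAG, 12.01, 11.75 and 11.94 with cyclopamine, and 12.32, 12.50 and 12.34 with vehicle. Its cyclopamine arrays lay below every other array. It fell with cyclopamine by 0.49 (SE 0.12, limma adjusted p = 0.0479). It was also higher with SAG than with cyclopamine (0.46 ± 0.11, limma adjusted p = 0.0267). Hspb11, the small IFT-B subunit IFT25, was 8.05, 7.58, 7.69 and 7.78 with SAG, 7.21, 6.56 and 7.42 with cyclopamine, and 7.61, 7.37 and 7.28 with vehicle. Vehicle overlapped cyclopamine and SAG. It was higher with SAG than with cyclopamine by 0.71 ± 0.20 (limma adjusted p = 0.0492), and by 0.46 without cyclopamine replicate 2 (adjusted p = 0.122). With 1 array left out in turn, the Tmem107 calls in both comparisons and the Pkd1 call between SAG and cyclopamine held in all 10 cases. The Ofd1 call ended without cyclopamine replicate 1 or vehicle replicate 1 or 2, and the Pkd1 call against vehicle without cyclopamine replicate 3 or vehicle replicate 1 or 3. The Lztfl1 call against vehicle ended whichever array was left out, that of Lztfl1 between SAG and cyclopamine without any SAG array or cyclopamine replicate 2 or 3, and that of Hspb11 with any array left out but cyclopamine replicate 3.

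Motile cilia and cilium loss were read from short lists. Of 12 measured genes of motile cilia, 0 passed in any comparison. Of all probe sets, 0.73% passed with SAG and 5.12% with cyclopamine, each against vehicle, and 11.3% between the compounds. At an unadjusted p under 0.05 there were 1, 2 and 0 of the 12 in the same order, against 10.8%, 18.9% and 23.4% of all probe sets. Of the 12, 5 had a mean signal under the lower quartile (5.19). Rfx3, an RFX factor of both cilium types, was at -0.09 ± 0.14 (SE) with SAG and -0.29 ± 0.15 with cyclopamine. Of 6 measured genes that promote cilium disassembly, 1 passed, in SAG against cyclopamine (16.7%, against 11.3% of all probe sets called). Hdac6, a tubulin deacetylase, was 9.86, 10.40, 10.08 and 10.02 with SAG, 10.96, 10.79 and 11.25 with cyclopamine, and 10.51, 10.49 and 10.42 with vehicle. SAG arrays lay below vehicle arrays and cyclopamine arrays above them. It was lower with SAG than with cyclopamine by -0.91 ± 0.16 (limma adjusted p = 0.00376), and did not pass with SAG (-0.38) or cyclopamine (0.53) against vehicle.

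Lists of cell type markers and cell cycle genes were read on the same arrays. Averaged over the 40 cilium genes, each array's distance from the vehicle mean was -0.13 to 0.03 with SAG, -0.15 to 0.00 with cyclopamine and -0.07 to 0.06 with vehicle, and the groups overlapped. For the 56 further cilium genes it was -0.05 to -0.02 with SAG, -0.22 to -0.09 with cyclopamine and -0.03 to 0.05 with vehicle, and the cyclopamine arrays lay below all others. For the 12 motile cilium genes it was -0.30 to -0.19 with SAG, -0.38 to -0.31 with cyclopamine and -0.17 to 0.28 with vehicle. No groups overlapped in this mean, which includes Gmnc at -2.02 with SAG and -2.03 with cyclopamine against vehicle. The median differences of the 12 were -0.11 and -0.17. Taken singly, groups did not overlap for 0 of the 12 between SAG and cyclopamine, against 21.2% of all probe sets. The mean of 14 duct epithelium markers lay at -1.33 to -0.81 with SAG, 0.59 to 1.31 with cyclopamine and -0.43 to 0.53 with vehicle. With cyclopamine against vehicle 12 of the 14 had a positive difference and 2 a negative one, the lowest being Ret (-1.55). The mean of 10 smooth muscle genes lay at -0.62 to -0.41, -3.10 to -2.68 and -0.35 to 0.21 on the SAG, cyclopamine and vehicle arrays. That of 10 mesenchyme genes lay at 0.21 to 0.37, -0.99 to -0.74 and -0.06 to 0.04 in the same order of groups. That of 6 endothelium genes lay at 0.12 to 0.70, -2.02 to -0.41 and -0.55 to 0.44, where vehicle overlapped both other groups. All groups overlapped in the means of 7 macrophage genes and of 6 neuron and glia genes. The mean of 11 cell cycle genes lay at -0.18 to 0.06, -0.78 to -0.50 and -0.07 to 0.04 in the same order. Of the 11, 4 fell with cyclopamine against vehicle, where 2.95% of all probe sets were called lower. Whether these shifts have a part in the values of Tctn3, Ift172, Bbs1, Bbs7 or the other genes named was not tested.

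**Figure D5:**
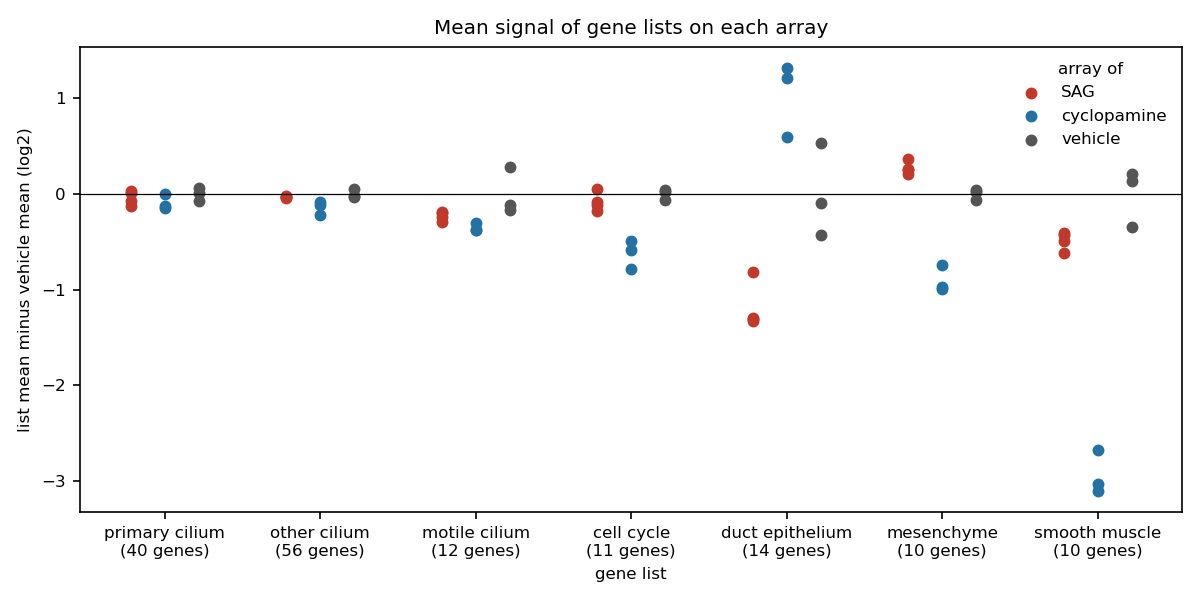
Mean log2 signal of gene lists on each array (1 point per array), minus the mean of the vehicle arrays, for SAG, cyclopamine and vehicle. Points of the 40 cilium genes stay between -0.15 and 0.06, while duct epithelium markers reach 1.31 and smooth muscle genes -3.10 with cyclopamine.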

How the data were processed

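RNA levels come from Affymetrix arrays, hybridised with the WT Plus kit per the labels' protocols. The authors deposited log2 signals, 1 for each probe set on each array; the base was inferred from their range (2.95 to 18.7), and summarization, normalization, software and genome build were not given in the sources used here. Array quartiles were nearly equal, as after normalization between arrays. The platform annotation named 19572 probe sets with 1 symbol each, 0 with several, and left 2634 unnamed. All 40 member symbols matched a RefSeq table (GRCm38.p6). A gene with several probe sets was represented by the one with the highest mean.

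A mean per group was fitted with limma 3.58.1 in R 4.3.3 to all 22206 probe sets and 10 arrays without filter, and variances were moderated with eBayes (7 residual and 3.70 prior degrees of freedom). Tests were two-sided with Benjamini-Hochberg adjustment at 0.05, and errors and intervals (95%) are moderated. The fit was tested on simulated data with known changes. No replicate block was used. The number of arrays limits precision, and p-values measure only the spread between these cultures.

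Members, lists and tests were chosen with earlier results of these data known. Named were the members that passed, the 2 of each role with the smallest p, the 3 highest and 3 lowest signals, up to 5 passing genes of each further list, and Ptch1, with Gli1 and Hhip in the closing section. Ift88, Ift52, Bbs2, Bbs4, Tctn1, Tctn2, Tmem231, Tulp3, Sufu, other members, Rfx3 and genes of the closing section were named after their values were seen. Alternatives were quantile normalization again, median centring, a filter on the dimmest 25% of probe sets, 2-group fits, trended or robust priors, array weights, a replicate block, a mean over all probe sets of a gene, and omission of 1 array at a time.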

Additional observations from a re-analysis of the deposited data

Results flagged for a closer look

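In the 4 SAG arrays, each cilium gene and each further named gene was checked for an array far from the other 3, which chance alone gives in about 1 of 20 groups. Of 49 genes, 2 had one. Ift52 was 10.98 on SAG replicate 3, against 11.05 on the nearest other SAG array, a gap of 0.858 of the range of the group. Sufu was 11.17 on SAG replicate 4, against 11.37 on the nearest other SAG array, a gap of 0.850 of the range of the group. Both genes were near 0 against vehicle and passed in no comparison.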

How the results depend on the processing

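Under the 19 alternatives no gene that passed changed sign, and SAG against vehicle kept 0 cilium gene calls. Of 2793 values of single genes, 138 changed sign, all of genes that did not pass and were at 0.19 or less in size. Between SAG and cyclopamine, where 3 cilium genes passed, 5 did after median centring, 5 after removal of the dimmest 25% of probe sets and 0 when the fit held just the 2 groups compared, and leaving out each array in turn gave 0 to 2. In cyclopamine against vehicle, where 1 passed, 0 did when fitted as 2 groups, and leaving out each array gave 0 to 2. Of the further cilium genes, where 4 passed in either comparison with cyclopamine, 2 passed between SAG and cyclopamine and 1 in cyclopamine against vehicle when fitted as 2 groups, and leaving out each array gave 2 to 4 and 1 to 3. Motile cilium genes gave 0 to 1 in cyclopamine against vehicle, 1 without SAG replicate 1 or vehicle replicate 3. The median cilium gene difference of SAG against vehicle was -0.01 and turned to 0.0762 with centring, which moves all genes. The fits with fewer arrays have fewer degrees of freedom; other causes were not tested. Deviations of same-numbered arrays from their group means correlated at r from -0.19 to 0.24 over 9 pairs. Pairs with unlike numbers ran from -0.22 to 0.23. With so few arrays in a group, this cannot show whether the numbers pair the samples. With the replicate number as a block, 0 cilium genes passed in any comparison, and 2 further cilium genes passed between SAG and cyclopamine and 1 in cyclopamine against vehicle. Among values of single genes, 2685 stayed on their side of the threshold, 98 no longer passed and 10 newly passed. Over all probe sets, SAG against vehicle gave 162 calls, but 313 with array weights, 296 as 2 groups, 32 with the block and 45 to 339 with 1 array left out. Cyclopamine against vehicle gave 1136, but 566 as 2 groups, 653 with the block and 485 to 1471 with 1 array left out, and SAG against cyclopamine 2518, but 1613 with the block. The number of arrays and, for dim probe sets such as Kif7, low signal limit what could be detected.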

Other observations

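Further hedgehog targets were read as checks of the treatments. Gli1, a GLI factor induced by the pathway, was 13.41, 13.41, 13.61 and 13.24 with SAG, 4.56, 5.37 and 4.99 with cyclopamine, and 12.63, 11.67 and 11.43 with vehicle. Hhip, a hedgehog-binding target gene, was 16.01, 16.81, 16.54 and 16.60 with SAG, 6.21, 6.12 and 5.66 with cyclopamine, and 12.08, 12.67 and 11.09 with vehicle.

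Further ciliary genes with wide spread among arrays passed in no comparison. Gmnc, geminin coiled-coil protein 1, which switches on multiciliated cell fate, was 4.44, 6.32, 7.22 and 7.27 with SAG, 6.53, 5.53 and 6.82 with cyclopamine, and 7.84, 9.03 and 8.11 with vehicle. All arrays of both compounds lay below all vehicle arrays, but neither difference passed (-2.02 ± 0.62 (SE) with SAG, limma adjusted p = 0.231, and -2.03 ± 0.67 with cyclopamine, limma adjusted p = 0.119), and both rest on the same 3 vehicle arrays. Cep89, a distal appendage gene, was 7.46, 9.70 and 9.65 on the vehicle arrays, and Pkhd1, which encodes fibrocystin, was 7.98, 10.64, 10.73 and 9.67 on the SAG arrays. Their causes were not tested.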
